A study of Mus musculus with 8 samples.

Results

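A set of 40 genes of the DNA replication machinery was followed through 2 RNA-seq experiments on mouse CD8+ T cells. They were chosen by gene symbol, with earlier results of these data known, and kept where at least 2 libraries of a table held a value of at least 10. All 40 were listed and kept in both tables, among 15415 genes kept of 49490 listed in the first experiment and 13978 of 55291 in the second. PolyA RNA came from CD8+ T cells of mouse spleens and lymph nodes. The first experiment set Trim28-/- cells (knockout, 2 libraries) against Trim28fl/fl cells, labelled WT (control, 2 libraries), and both were activated in vitro. The TRIM28 protein silences genes and repeats to which zinc finger proteins recruit it. The second set WT cells given an antibody against IL-2 (blocked, 2 libraries) against untreated WT cells (2 libraries), and both groups received antibodies to CD3 and CD28 for 3 days. Strain, age, the Cre driver, the stimulus and its length in the first experiment, and the number of mice pooled are not given in the sources used here. Nothing says that the 2 libraries of a group came from separate mice or cultures, so the p-values reflect library-to-library spread alone, and that spread may be technical.

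A cell copies its DNA once per division, in steps that are set apart in time. Before S phase the origin recognition complex, CDC6 and CDT1 load the MCM2-7 ring onto DNA, which is called licensing, and geminin then blocks CDT1 so that no origin is licensed again. At the start of S phase the kinase made of CDC7 and DBF4 acts on the ring, CDC45 and the GINS complex join it, and the active helicase unwinds the DNA for primase and the polymerases. Many of these genes are switched on in late G1 by E2F transcription factors. A T cell that has been activated leaves rest and divides rapidly, and IL-2 is a growth factor that it makes for itself.

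The deposited values are read counts divided by a size factor for each library, called normalised read counts here. The libraries held 13398371 and 13469789 reads in the knockout, 13254136 and 13222831 in the control, 17042931 and 17069569 in the blocked and 16653962 and 16618750 in the untreated group. Trim28 was measured at 415 and 458 in knockout libraries, against 4262 and 4323 in control libraries (log2 fold change -3.30). Trim28 was higher with the antibody, at 7926 and 8528 in blocked libraries, against 5774 and 5919.8 in untreated libraries (log2 fold change 0.49). Il2 itself was at 5246 and 5410.2 in knockout libraries, against 9299 and 9217 in control libraries (log2 fold change -0.80), and at 18716 and 17835 in blocked libraries, against 17226 and 16739.7 in untreated libraries, which did not pass. The IL-2 receptor alpha chain gene Il2ra was at 24794 and 23967 in knockout libraries, against 26819 and 27387 in control libraries (log2 fold change -0.15), and at 22025 and 21937 in blocked libraries, against 44645 and 43661 in untreated libraries (log2 fold change -1.01), and it was called lower in each. The 6 markers of CD8 T cells passed the filter in both tables. They summed to 28530.0 to 29027 in knockout and 25830.2 to 26351 in control libraries, with 3 called higher and 2 lower, and to 38956 to 40429 in blocked and 44139 to 44221 in untreated libraries, with 0 called higher and 4 lower. The 6 B cell markers summed to 7.84 to 13.8 in knockout and 35.5 to 36.5 in control libraries, where the 2 that passed the filter were called lower, and to 51.5 to 52.7 in blocked and 36.0 to 45.7 in untreated libraries. Cd4 stayed under a normalised read count of 10, and the NK marker Ncr1 was listed at 0 throughout. The 6 myeloid markers summed to 144 to 154 in knockout and 248 to 292 in control libraries, and to 85.4 to 88.8 in blocked and 346 to 355 in untreated libraries. Most of that sum was Cd68, which passed as lower in each experiment. The 4 NK markers, of which Klrk1 made up most in untreated and control cells, summed to 404 to 419 in knockout and 1552 to 1559 in control libraries, and to 509.8 to 511 in blocked and 2737 to 2754 in untreated libraries. Only Klrk1 and Eomes passed the filter, and both were called lower with the antibody. In the knockout Klrk1 was called lower but Eomes higher (237 and 263, against 175 and 155 in control libraries). Markers of CD4 T cells summed to 153 to 169.6 in knockout and 504 to 524 in control libraries, and to 557 to 586 in blocked and 496 to 569.5 in untreated libraries, and 3 of the 4 passed the filter in each table. Of those 3, 1 was called higher and 2 lower in each experiment. Zbtb7b was called lower in both. Cd40lg was called lower in the knockout (41.4 and 49.0, against 346 and 365 in control libraries). It was called higher with the antibody (427 and 455, against 338 and 290 in untreated libraries). Foxp3, the regulator of regulatory T cells, was at 43.3 and 49.0 in knockout libraries, against 4.06 and 5.07 in control libraries, and at 8.59 and 9.59 in blocked libraries, against 58.2 and 50.5 in untreated libraries. The part of these marker changes in the results was not tested. In bulk RNA, more cells in a phase of the cycle and more RNA per cell cannot be told apart.

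**Figure D1:**
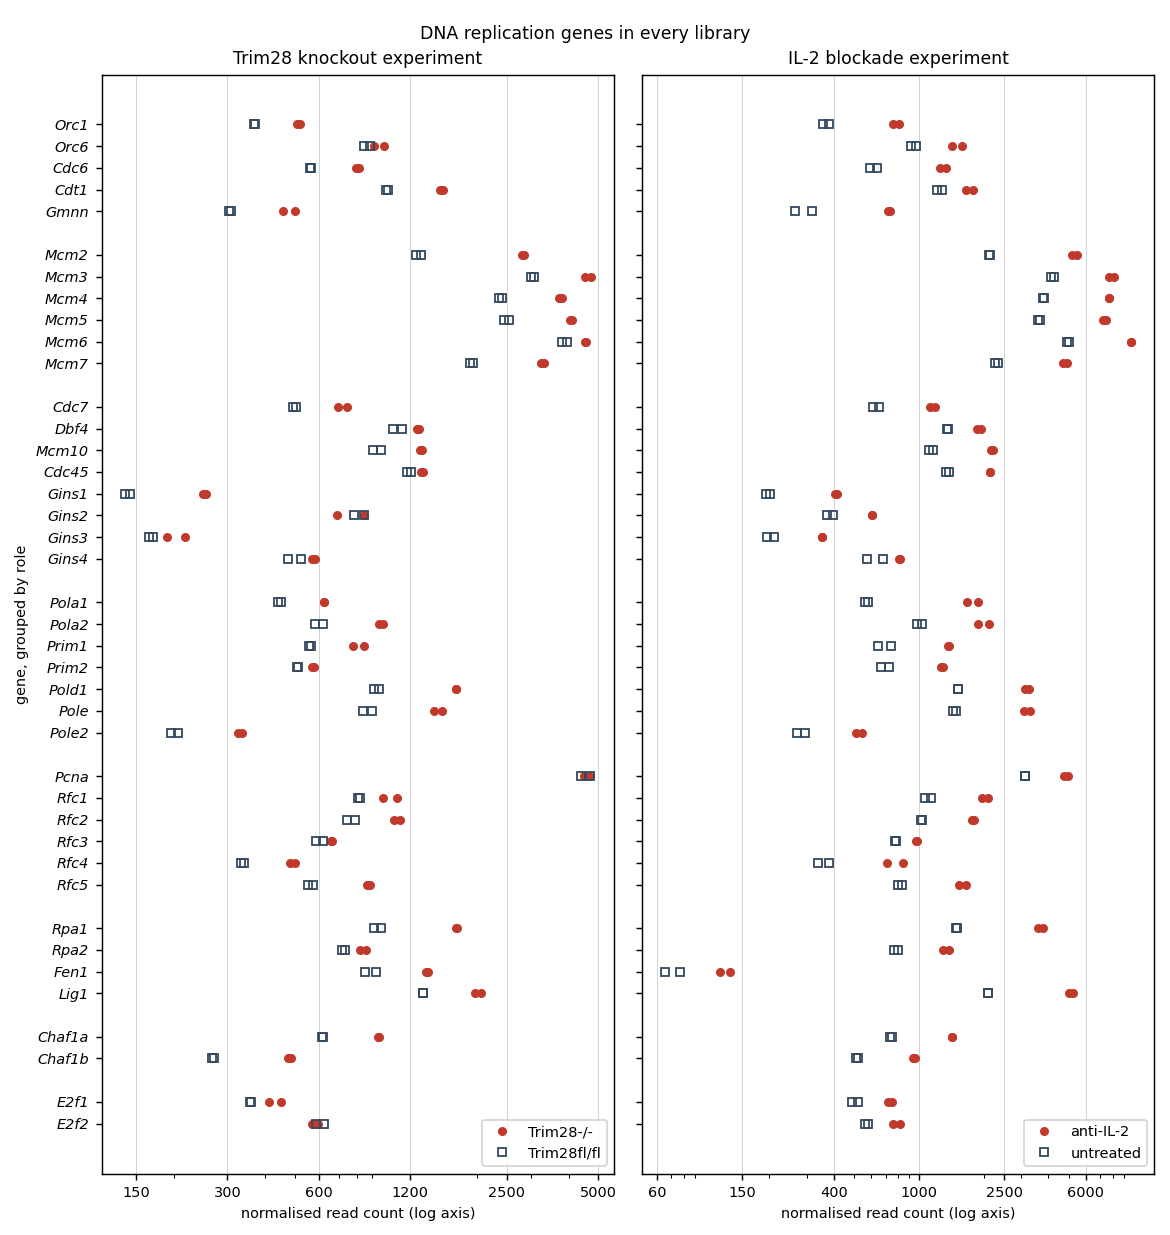
Normalised read count (log axis) of each replication gene in every library, with the genes grouped by role. Filled circles are knockout (left) or anti-IL-2 (right) libraries and open squares are control or untreated libraries. In 37 of 40 genes both knockout libraries lie above both controls, and in 40 of 40 both blocked libraries lie above both untreated ones.

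Loss of Trim28 came with higher levels of most replication genes. Of the 40 genes 36 rose, 0 fell and 4 did not pass, at an adjusted p under 0.05 by limma's moderated test over all 15415 genes. Of all genes tested 32.9% were called higher and 28.2% lower. The median log2 fold change of the 40 was 0.52, beside 0.031 over all genes, and the range ran from -0.095 in Gins2 to 1.14 in Mcm2. Together the 40 genes held 57355 and 57382 normalised reads in knockout libraries, against 40779 and 41019.5 in control libraries. As a share of reads this was 43.5 and 43.5 per 10000 in the knockout, against 30.3 and 30.6 in the control. A log2 fold change of at least 0.5 was seen in 22 of the 40 and in 15.9% of all genes. Both knockout libraries lay above both controls for 37 genes, which held for 43.4% of all genes tested. For 0 of the 40 genes did both lie below, and 0 were lower at an unadjusted p under 0.05. The shares over all genes were not computed for these last counts. The edgeR and DESeq2 tests also called 0 lower.

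The call held under every alternative tried for 28 of the 36 genes. The other 8 were Cdc45, Dbf4, Gins3, Gins4, Prim2, Rfc3, Rpa2 and E2f1, and DESeq2 called none of them. Without knockout replicate 1 the count was 30, without knockout replicate 2 it was 29, without control replicate 1 it was 32 and without control replicate 2 it was 30.

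Blocking IL-2 came with higher levels of every replication gene. All 40 genes rose and 0 fell, where 31.4% of the 13978 genes tested were called higher and 28.9% lower. Their median log2 fold change was 0.92, beside 0.018 over all genes, and the range ran from 0.33 in Rfc3 to 1.64 in Pola1. In blocked libraries the 40 genes summed to 97286 and 98609 normalised reads, against 50746 and 50492 in untreated libraries. Their share of reads was 59.8 and 60.2 per 10000 with the antibody, against 29.3 and 29.5 without it. Both blocked libraries lay above both untreated ones for 40 genes, which held for 41.1% of all genes tested. The count stayed at 40 under each alternative but 1: without a filter on low values Gins4 did not pass (adjusted p = 0.069).

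**Figure D2:**
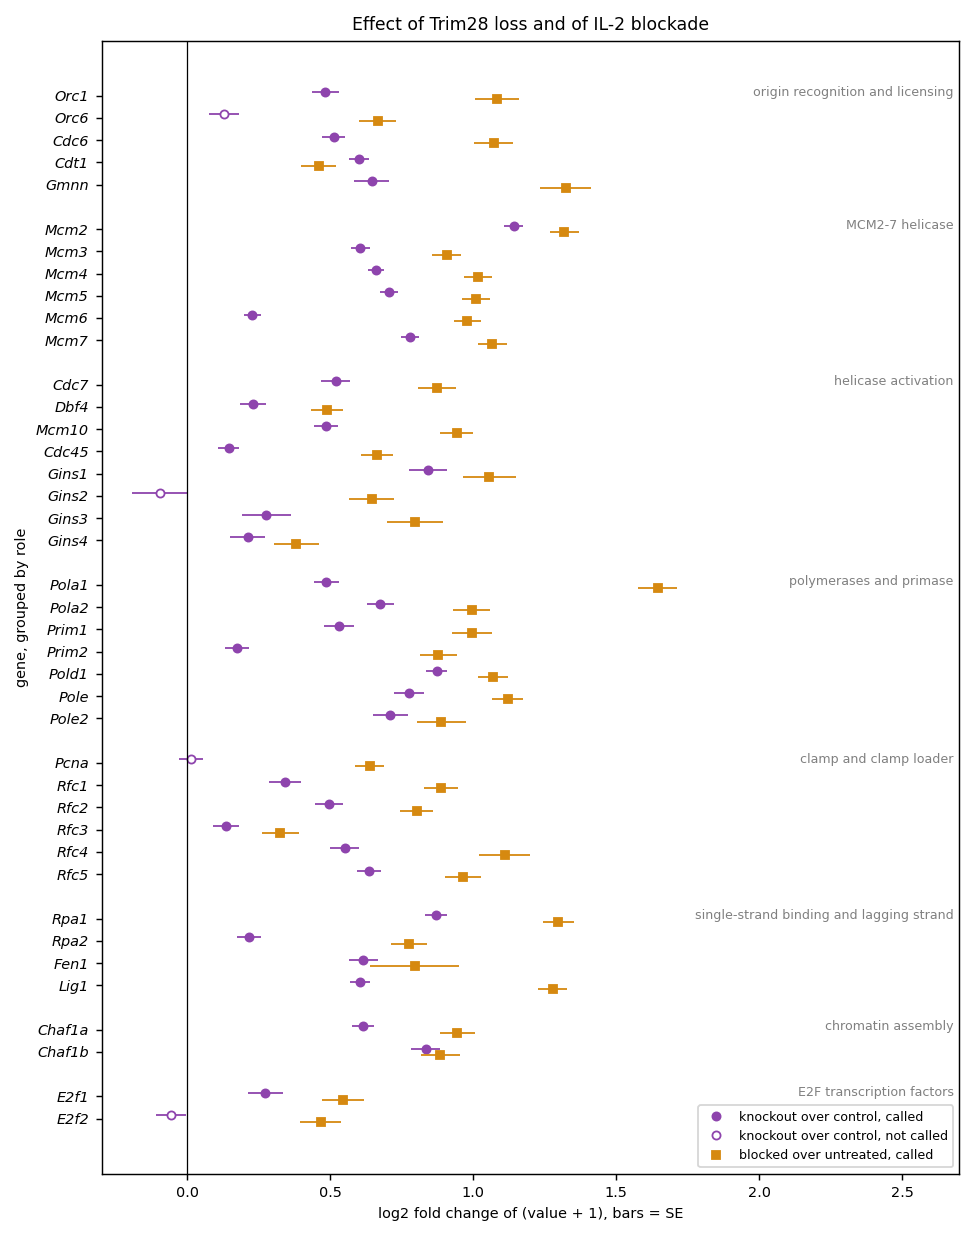
Log2 fold change of each replication gene with its SE, for knockout over control (circles) and blocked over untreated (squares), 2 libraries per group. Open symbols did not pass, and 4 genes have one, all in the knockout: Orc6, Gins2, Pcna and E2f2.

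The MCM2-7 ring, the core of the helicase, rose as a whole in both experiments, with 6 of 6 genes called in each. Of all genes tested 32.9% were called higher in the knockout and 31.4% with the antibody. Mcm2, which also binds histones at the fork, had 2799.6 and 2845 in knockout libraries, against 1256 and 1303 in control libraries (log2 fold change 1.14, SE 0.034, adjusted p = 8.81e-06). This was 2.21-fold and the largest rise among the 40 genes in the knockout. With the antibody it had 5192 and 5450.1 in blocked libraries, against 2152 and 2113 in untreated libraries (log2 fold change 1.32, SE 0.051, adjusted p = 6.46e-14). Mcm7, a ring subunit whose introns hold a microRNA cluster, was at 3252 and 3307 in knockout libraries, against 1935 and 1889 in control libraries (log2 fold change 0.78, SE 0.03, adjusted p = 1.93e-05). In the second experiment its values were 4706 and 4914 in blocked libraries, against 2328 and 2264 in untreated libraries. Mcm5, which sits at the gate of the ring, was counted at 4104 and 4032 in knockout libraries, against 2456 and 2533 in control libraries (log2 fold change 0.71, SE 0.03, adjusted p = 2.46e-05), and at 7201 and 7454 in blocked libraries, against 3679 and 3597 in untreated libraries. The log2 fold change of Mcm3 was 0.60 in the knockout and 0.91 with the antibody, and that of Mcm4 was 0.66 and 1.02 in that order. Mcm6 stood apart in the knockout, at 4563 and 4518 in knockout libraries, against 3802 and 3955 in control libraries (log2 fold change 0.23, SE 0.03). With the antibody its effect was within their range, at 9758 and 9735 in blocked libraries, against 5005 and 4886 in untreated libraries (log2 fold change 0.98).

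Promoter sequences were read for the members from RefSeq's GRCm38.p6 table, in which 32 of the 40 genes matched. The 8 others were Mcm4, Gins1, Gins2, Gins4, Pole, Prim2, Rfc2 and Gmnn. Each window spans a gene start annotated by RefSeq and lies mostly before it, and the 32 genes had 38 windows. Both strands were searched for 8-letter E2F motifs (TTTCCCGC, TTTCGCGC, TTTGCCGC or TTTGGCGC), since E2F factors are known regulators of these genes. At least 1 was found in 14 of the 32 genes (43.8%), and in 449 of 8928 genes tested in both experiments (5.03%). A match describes letters only. The 6 stretches below end at the base before a RefSeq gene start and read 5′ to 3′ on the gene's strand. They are shown because these genes of licensing, the ring and the first polymerase rose in both experiments and held a match there. GENCODE M21 places the gene start further upstream for Cdc6 (98907801), Mcm7 (138172422) and Orc1 (108579423). By those starts the Cdc6 and Mcm7 stretches and the Orc1 match lie inside the gene. Capitals mark the matches, and where 2 overlap they form 1 run.
Cdc6 (chr11:98908003-98908150, plus strand): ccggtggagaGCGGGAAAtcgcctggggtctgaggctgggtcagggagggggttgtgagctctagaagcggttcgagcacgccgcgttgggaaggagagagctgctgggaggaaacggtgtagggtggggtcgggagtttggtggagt
Orc1 (chr4:108579354-108579453, plus strand): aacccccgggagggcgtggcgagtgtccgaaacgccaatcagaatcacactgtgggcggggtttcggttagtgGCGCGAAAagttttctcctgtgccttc
Mcm5 (chr8:75109346-75109508, plus strand): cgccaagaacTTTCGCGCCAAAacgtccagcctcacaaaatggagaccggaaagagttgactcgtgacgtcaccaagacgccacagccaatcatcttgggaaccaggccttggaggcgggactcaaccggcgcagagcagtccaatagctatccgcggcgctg
Mcm6 (chr1:128359706-128359825, minus strand): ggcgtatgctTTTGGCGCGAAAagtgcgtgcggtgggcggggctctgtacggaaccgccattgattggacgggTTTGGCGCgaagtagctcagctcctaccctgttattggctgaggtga
Mcm7 (chr5:138171884-138172058, minus strand): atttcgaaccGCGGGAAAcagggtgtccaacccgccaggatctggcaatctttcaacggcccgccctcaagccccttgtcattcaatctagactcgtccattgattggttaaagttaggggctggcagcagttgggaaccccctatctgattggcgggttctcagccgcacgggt
Pola1 (chrX:93632156-93632303, minus strand): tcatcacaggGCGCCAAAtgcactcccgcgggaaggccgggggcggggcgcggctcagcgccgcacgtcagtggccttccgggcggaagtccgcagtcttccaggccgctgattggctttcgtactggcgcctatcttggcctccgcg

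Mcm5 and Mcm6 each showed a run in which a match on one strand overlapped a match on the other, and Mcm6 held a further match nearer the start. Mcm2, Pcna and E2f1 had no match in their windows. GENCODE M21 places the E2f1 start further upstream (154569892). By that start its window (154569377-154569676) lies inside the gene, and the sequence before the start was not searched. The CCAAT box, the letters CCAAT on either strand, lay in 19 of 32 members (59.4%) and in 43.3% of the 8928 genes. The cell cycle homology region, searched as TTTGAA on either strand, lay in 7 of 32 (21.9%) and 14.1%. Median GC content of the windows was 61.3% in members and 60.7% in the tested genes. The 14 genes with an E2F match had a median log2 fold change of 0.56 in the knockout and 0.99 with the antibody. The 18 without one had 0.52 and 0.89, and the ranges of both kinds of gene overlapped in each experiment.

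Genes that load the ring rose in both experiments, apart from Orc6 in the knockout. Cdc6, the loader ATPase, was at 814 and 797 in knockout libraries, against 563 and 567 in control libraries, and at 1259 and 1333 in blocked libraries, against 639 and 594 in untreated libraries. It was called in the knockout (log2 fold change 0.51) and with the antibody (log2 fold change 1.07, SE 0.067, adjusted p = 7.53e-11). Orc1, the regulated subunit of the origin recognition complex, had 509 and 521 in knockout libraries, against 366 and 370.0 in control libraries. With the antibody it stood at 811 and 754 in blocked libraries, against 356 and 381 in untreated libraries (log2 fold change 1.08, SE 0.078, adjusted p = 5.27e-10). Orc6, the smallest subunit of that complex, had 913 and 983 in knockout libraries, against 887 and 846 in control libraries, which did not pass (log2 fold change 0.13, SE 0.052, adjusted p = 0.0749), while with the antibody it had 1586 and 1424 in blocked libraries, against 922 and 973 in untreated libraries and was called. Cdt1, which brings the ring to the origin, was at 1506 and 1546 in knockout libraries, against 997 and 1014 in control libraries (log2 fold change 0.60), and at 1653 and 1785 in blocked libraries, against 1220.1 and 1280.1 in untreated libraries (log2 fold change 0.46). It was the 1 gene of the 40 whose log2 fold change was higher in the knockout than with the antibody. Gmnn, the gene of geminin, the inhibitor of CDT1, rose along with it, at 459 and 501 in knockout libraries, against 308 and 304 in control libraries (log2 fold change 0.65, SE 0.061, adjusted p = 0.000339). With the antibody it reached 718 and 735 in blocked libraries, against 317 and 265 in untreated libraries (log2 fold change 1.32, SE 0.089, adjusted p = 2.13e-10), the second largest rise of the 40.

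Genes that turn the loaded ring into a working helicase had a lower median in the knockout than the ring. Their median log2 fold change was 0.25 over 8 genes, of which 7 were called higher, where 32.9% of all genes were. The calls of Cdc45, Dbf4, Gins3 and Gins4 were each lost under several alternatives. Cdc7, the kinase that starts firing, was at 742 and 693 in knockout libraries, against 506 and 494 in control libraries (log2 fold change 0.52), and its activating subunit Dbf4 at 1288 and 1268 in knockout libraries, against 1052 and 1129 in control libraries (log2 fold change 0.23). With the antibody the pair was at 0.87 and 0.49 on that scale. Mcm10, a firing factor outside the ring despite its name, had 1319 and 1297 in knockout libraries, against 906 and 963 in control libraries, and 2172 and 2218 in blocked libraries, against 1118 and 1167 in untreated libraries. Cdc45, which joins the ring when it fires, had 1304 and 1322 in knockout libraries, against 1206 and 1171 in control libraries. This small rise (log2 fold change 0.14) passed here but not with upper-quartile scaling, with DESeq2 or in most fits with a library left out. In the second experiment Cdc45 was at 2154 and 2144 in blocked libraries, against 1381 and 1334 in untreated libraries (log2 fold change 0.66).

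The 4 GINS genes encode the subunits of 1 complex, and their log2 fold changes in the knockout ran from -0.095 in Gins2 to 0.84 in Gins1. Gins1 had 255 and 250.0 in knockout libraries, against 138 and 143 in control libraries (log2 fold change 0.84, SE 0.066, adjusted p = 0.00017). Gins3 was at 218 and 190.2 in knockout libraries, against 170.4 and 165 in control libraries and Gins4 at 584 and 569.6 in knockout libraries, against 523 and 474 in control libraries, with log2 fold changes of 0.28 and 0.21. Gins2 had 688 and 843 in knockout libraries, against 844 and 785 in control libraries, so the groups overlapped and it did not pass (log2 fold change -0.095, SE 0.098, adjusted p = 0.432). It had the widest spread between knockout libraries of the 40 genes on the log2 scale, and its log2 fold change was 0.051 without knockout replicate 1. Gse1, on the other strand, covers 67.3% of its exon bases and was itself lower, at 655 and 514 in knockout libraries, against 909 and 999.5 in control libraries. Reads of this pair cannot be told apart without strand, and the part of Gse1 in the Gins2 values was not tested. With the antibody all 4 rose, at 1.06 for Gins1, 0.64 for Gins2, 0.80 for Gins3 and 0.38 for Gins4. Gse1 was lower there too, at 458 and 496 in blocked libraries, against 1003 and 999 in untreated libraries (log2 fold change -1.07). The limit from its overlap holds for the antibody effect of Gins2 as well.

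Polymerase and primase genes rose in both experiments, with 7 of 7 called in each, where 32.9% and 31.4% of all genes were called higher. The knockout call of Prim2 was lost with upper-quartile scaling, with DESeq2 and in each fit with a library left out. Pola1, the catalytic subunit of the polymerase that extends RNA primers, had 1879 and 1682 in blocked libraries, against 559 and 577 in untreated libraries (log2 fold change 1.64, SE 0.067, adjusted p = 1.27e-13). This 3.13-fold difference was the largest of the 40 genes with the antibody. In the knockout Pola1 rose much less, at 624 and 624 in knockout libraries, against 440.2 and 451 in control libraries (log2 fold change 0.49). Its partner subunits had closer effects in the 2 experiments, with the primase gene Prim1 at 0.53 in the knockout and 0.996 with the antibody on the log2 scale. Pola2, the regulatory subunit, had 974 and 949.9 in knockout libraries, against 585 and 619 in control libraries (log2 fold change 0.67, SE 0.046, adjusted p = 0.000104), and with the antibody its log2 fold change was 0.99. Prim2, the large primase subunit, had 572 and 578 in knockout libraries, against 508 and 512 in control libraries (log2 fold change 0.17), and 1296 and 1261 in blocked libraries, against 725 and 666 in untreated libraries (log2 fold change 0.88). Pold1, the catalytic subunit of the lagging strand polymerase, had 1702 and 1699.8 in knockout libraries, against 911 and 947 in control libraries (log2 fold change 0.87, SE 0.037, adjusted p = 2.29e-05). With the antibody it had 3129 and 3268 in blocked libraries, against 1520.5 and 1528 in untreated libraries (log2 fold change 1.07, SE 0.054, adjusted p = 2.73e-12). Pole, its leading strand counterpart, was at 1532 and 1442 in knockout libraries, against 839 and 899 in control libraries (log2 fold change 0.77, SE 0.051, adjusted p = 9.59e-05), and at 3074 and 3290.4 in blocked libraries, against 1440.4 and 1486 in untreated libraries (log2 fold change 1.12, SE 0.056, adjusted p = 2.41e-12). Pole2, the second subunit of that polymerase, had 325 and 334 in knockout libraries, against 196 and 207 in control libraries (log2 fold change 0.71, SE 0.062, adjusted p = 0.000252), and its log2 fold change with the antibody was 0.89.

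Of the clamp and loader genes 5 of 6 rose in the knockout, all but Pcna, and 6 of 6 rose with the antibody. The shares of all genes called higher were 32.9% and 31.4%. Pcna, the ring that tethers polymerases to DNA, had 4474 and 4679.9 in knockout libraries, against 4682 and 4393 in control libraries, with overlapping groups (log2 fold change 0.013, SE 0.041, adjusted p = 0.804), and the sign of its change turned with TMM or upper-quartile scaling. Its annotated pseudogene copy Pcna-ps2 took up 1725 and 1704 in knockout libraries, against 1732 and 1632 in control libraries, and the sum of both showed a log2 difference of 0.017. With the antibody Pcna rose to 4969 and 4744 in blocked libraries, against 3111 and 3131 in untreated libraries (log2 fold change 0.64, SE 0.05, adjusted p = 2.24e-09). In that table Pcna-ps2 held only 73.5 and 59.5 in blocked libraries, against 43.6 and 52.5 in untreated libraries, and the sum of both showed a log2 difference of 0.64. How reads were divided between gene and copy was not tested. Rfc1 to Rfc5 encode the loader that opens the clamp. In the knockout Rfc5 had 867 and 884 in knockout libraries, against 574 and 552 in control libraries (log2 fold change 0.64). Rfc4 had 500.3 and 483 in knockout libraries, against 332 and 339.6 in control libraries (log2 fold change 0.55). Rfc2 (0.50), Rfc1 (0.34) and Rfc3 (0.14) moved less on that scale. The call of Rfc3 in the knockout was lost without any 1 of the 4 libraries and with TMM or upper-quartile scaling, edgeR, DESeq2, no filter or the replicate block. With the antibody Rfc4 had 845 and 713 in blocked libraries, against 380.4 and 339 in untreated libraries (log2 fold change 1.11, SE 0.089, adjusted p = 2.72e-09). The other log2 fold changes there were 0.96 for Rfc5, 0.89 for Rfc1, 0.80 for Rfc2 and 0.33 for Rfc3. The log2 fold change of Rfc3 was thus the lowest of the 5 in each experiment. Its values were 659 and 666 in knockout libraries, against 619 and 587 in control libraries. In the second experiment they were 981 and 971 in blocked libraries, against 785 and 772 in untreated libraries. Eif4a2 covers 12.7% of the exon bases of Rfc4 on the other strand, and its part in the Rfc4 values was not tested.

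Genes for single-stranded DNA and the lagging strand rose in both experiments, 4 of 4 in each, where 32.9% and 31.4% of all genes did. Rpa1, the large subunit of the protein that coats single strands, had 1707 and 1717 in knockout libraries, against 916 and 959 in control libraries (log2 fold change 0.87, SE 0.038, adjusted p = 2.56e-05). With the antibody it had 3784 and 3599 in blocked libraries, against 1494 and 1508 in untreated libraries (log2 fold change 1.30, SE 0.054, adjusted p = 1.39e-13). Rpa2, the middle subunit, moved less, at 0.21 and 0.77 on the log2 scale. Lig1, which seals Okazaki fragments, was at 2051 and 1969 in knockout libraries, against 1323 and 1323 in control libraries (log2 fold change 0.60), and at 4995 and 5219.9 in blocked libraries, against 2100.4 and 2110.2 in untreated libraries (log2 fold change 1.28, SE 0.051, adjusted p = 9.28e-14). Fen1, the flap nuclease that trims those fragments, had 1355 and 1378 in knockout libraries, against 855 and 929.6 in control libraries. In the second table it was counted at only 131 and 118 in blocked libraries, against 65.5 and 77.2 in untreated libraries, yet its log2 fold changes were 0.62 and 0.80. The antisense transcript Gm10143 covers 78.8% of the exon bases of Fen1, its part in these values was not tested, and the level of Fen1 is uncertain in either table.

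Chaf1a and Chaf1b encode 2 subunits of the chaperone that deposits new histones behind the fork, and both rose in each experiment. Chaf1b had 486 and 474 in knockout libraries, against 267 and 272 in control libraries (log2 fold change 0.83, SE 0.051, adjusted p = 7.08e-05), and 936 and 960.0 in blocked libraries, against 508 and 518 in untreated libraries (log2 fold change 0.88). Chaf1a was at 951 and 941 in knockout libraries, against 619.7 and 616 in control libraries (log2 fold change 0.61), and at 1422 and 1432 in blocked libraries, against 735 and 748 in untreated libraries (log2 fold change 0.94). Ubxn6 covers 52.5% of its exon bases on the other strand. It did not pass in the knockout (log2 fold change 0.078) and was lower with the antibody (-0.55), and its part in the Chaf1a values was not tested.

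The transcription factors among the 40 moved less than most of the machinery. E2f1, the activator that is itself a target of E2F, had 412 and 452 in knockout libraries, against 356 and 358 in control libraries (log2 fold change 0.27, SE 0.062, adjusted p = 0.0107). The call of E2f1 was lost when knockout replicate 2 (adjusted p = 0.0607), control replicate 1 (adjusted p = 0.0718) or control replicate 2 (adjusted p = 0.0671) was left out, by limma. E2f2, its close relative, had 569 and 598 in knockout libraries, against 589 and 625 in control libraries, with overlapping groups (log2 fold change -0.057, SE 0.052, adjusted p = 0.376). With the antibody both rose, E2f1 with 749 and 720.2 in blocked libraries, against 486 and 520.1 in untreated libraries (log2 fold change 0.55) and E2f2 with 759.9 and 819 in blocked libraries, against 562 and 579 in untreated libraries (log2 fold change 0.47).

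The effects of the 2 experiments were compared as a difference of log2 fold changes in a fit of all 8 libraries over 12428 genes, knockout effect minus antibody effect. The tables were normalised separately, and each effect was formed within its own table. The knockout effect was the smaller one for 39 of 40 genes, and 33 of them were called lower, where 17.0% of all genes tested were called lower. Over all 12428 genes tested the difference was above 0 for 6883. Of the 40 genes 0 were called higher, where 24.7% of all genes were, and 0 were higher at an unadjusted p under 0.05. The median difference was -0.36 over the 40 genes and 0.053 over all genes. Pola1 showed the widest gap (-1.16, SE 0.086, adjusted p = 3.77e-07). Mcm6 (-0.75, SE 0.052, adjusted p = 1.94e-07), Gins2 (-0.74, SE 0.12, adjusted p = 0.00033) and Prim2 (-0.70, SE 0.08, adjusted p = 1.94e-05) came next. Gmnn (-0.68, SE 0.12, adjusted p = 0.000673), Lig1 (-0.67, SE 0.059, adjusted p = 1.66e-06) and Pcna (-0.62, SE 0.062, adjusted p = 5.3e-06) followed them. Orc1 (-0.60, SE 0.092, adjusted p = 0.00023), Rfc4 (-0.56, SE 0.12, adjusted p = 0.0025) and Rpa2 (-0.56, SE 0.076, adjusted p = 8.75e-05) completed the 10 widest. For 7 genes the difference did not pass. These were Cdt1 (0.14, SE 0.071, adjusted p = 0.129), Chaf1b (-0.051, SE 0.083, adjusted p = 0.653), Gins1 (-0.21, SE 0.12, adjusted p = 0.157) and Gins4 (-0.17, SE 0.11, adjusted p = 0.232). The others were Pole2 (-0.18, SE 0.11, adjusted p = 0.217), Fen1 (-0.18, SE 0.13, adjusted p = 0.291) and Rfc3 (-0.19, SE 0.074, adjusted p = 0.0573), and Rfc3 passed with TMM or upper-quartile scaling and with edgeR. Across the 40 genes the 2 sets of log2 fold changes had a Pearson correlation of 0.66 and a Spearman correlation of 0.67, given as a description, since genes are not independent replicates. The median gene reached 52.3% of its antibody effect in the knockout on the log2 scale.

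The difference held under every alternative tried for 28 of the 33 genes. Mcm2, Pold1 and E2f1 each lost it without several single libraries, E2f1 also without a filter and with DESeq2, Dbf4 lost it without control replicate 2 and Gins3 lost it with DESeq2. Without blocked replicate B, Cdt1 passed as higher in the knockout contrast (difference 0.20, adjusted p = 0.028 by limma). The 2 experiments also differ in whatever else set them apart, so the gap between effects cannot be told apart from a difference in stimulation, time or preparation.

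**Figure D3:**
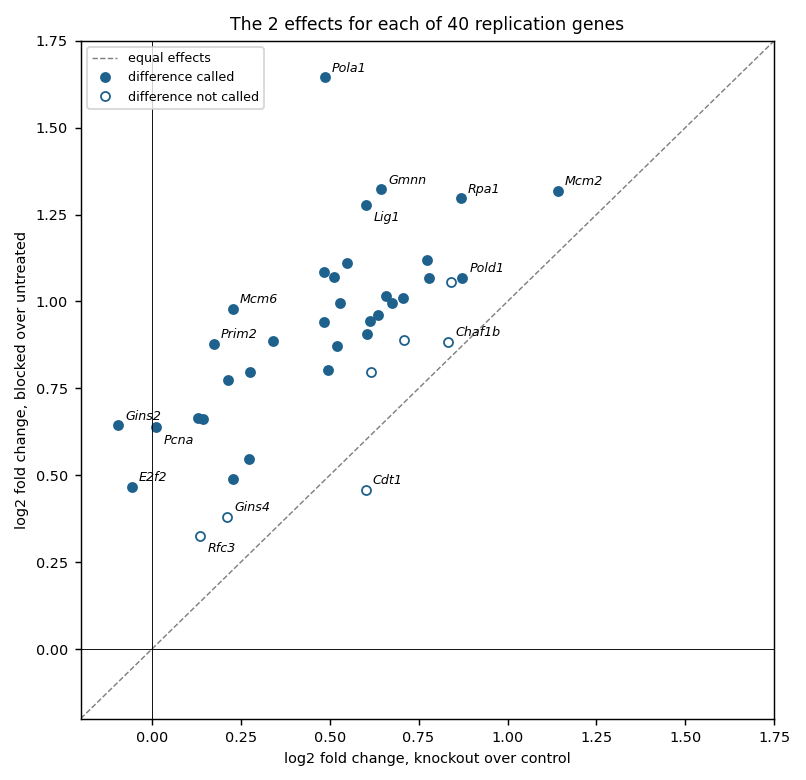
Log2 fold change of each of the 40 genes, knockout over control on the x axis and blocked over untreated on the y axis, with the line of equal effects dashed. All genes but Cdt1 lie above the line, filled points are the 33 whose difference was called, and open points are the 7 whose difference was not.

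Levels of different genes were compared per kilobase of merged exons, as the mean of the 2 libraries divided by the exon length in GENCODE M21, which may not be the annotation the counts were made with. Pcna had the highest level of the 40 genes in the first experiment, at 1907 in the knockout and 1891 in the control normalised reads per kilobase. Mcm3 (1232 in the knockout and 809.7 in the control), Mcm4 (1049 in the knockout and 664 in the control), Mcm5 (1019 in the knockout and 625 in the control) and Mcm6 (973 in the knockout and 831 in the control) took the next 4 places in each of these groups. With the antibody the order at the top changed, since Mcm4 (2146 in blocked and 1060.5 in untreated cells), Mcm3 (2102 in blocked and 1121 in untreated cells) and Mcm6 (2089 in blocked and 1059.9 in untreated cells) came above Pcna (2024 in blocked and 1300.3 in untreated cells) in blocked cells, while Pcna led in untreated cells. Mcm2 was the lowest of the 6 ring subunits per kilobase in all 4 groups, at 406 in the knockout and 184 in the control, and at 765 in blocked and 307 in untreated cells. Its merged exons were the longest of the 6, at 6.96 kilobases. Before division by length it was still lowest in the other groups, but in blocked cells its mean was above that of Mcm7 (5321 against 4810). Pola1 had the lowest level per kilobase of the 40 in the knockout experiment, at 70.8 in the knockout and 50.6 in the control, over 8.81 kilobases of merged exons.

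Related gene lists, also chosen with earlier results of these data known, were read beside the 40 genes. Over all genes tested, 32.9% were called higher and 28.2% lower in the knockout, and 31.4% higher and 28.9% lower with the antibody, and these shares are the background of each count of a list. Of 33 other replication factors, 24 rose and 1 fell in the knockout (median log2 fold change 0.37), and 30 rose and 1 fell with the antibody (median 0.57). Timeless, a fork protection gene, had 997 and 924 in knockout libraries, against 402 and 406 in control libraries (log2 fold change 1.25), and 1683 and 1745 in blocked libraries, against 744 and 745 in untreated libraries (log2 fold change 1.20). Pold2, a subunit of the lagging strand polymerase, rose by 1.23 in the knockout and 0.79 with the antibody. Another subunit of that enzyme, Pold4, fell in both, at 689 and 712 in knockout libraries, against 860.1 and 867 in control libraries (log2 fold change -0.30), and at 279.7 and 320.3 in blocked libraries, against 800.2 and 789.9 in untreated libraries (log2 fold change -1.41). It was the 1 gene of the list called lower in either experiment and was singled out after its values were seen. Orc2, a core origin subunit, rose by 0.94 in the knockout and 0.82 with the antibody. Top2a, the topoisomerase that untangles copied DNA, had 5288 and 5101 in knockout libraries, against 5064 and 5228 in control libraries and did not pass, and in the second experiment it had 13479 and 12392 in blocked libraries, against 6459 and 6456 in untreated libraries (log2 fold change 1.001). Wdhd1, which links helicase and polymerase, rose by 0.70 in the knockout and 1.16 with the antibody.

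Nucleotide supply genes rose in both experiments, 8 of 9 in the knockout and 9 of 9 with the antibody, with medians of 0.58 and 1.24 on the log2 scale. Tyms, which makes thymidylate, had 718 and 765 in knockout libraries, against 301 and 307 in control libraries (log2 fold change 1.28), and 1361 and 1450.0 in blocked libraries, against 439.6 and 409 in untreated libraries (log2 fold change 1.73). Rrm2, the regulated subunit of ribonucleotide reductase, was at 1.05 in the knockout and 1.37 with the antibody, and its partner Rrm1 at 0.58 and 1.24. All 7 genes of histone chaperones and maintenance methylation rose in each experiment. Uhrf1, which reads hemimethylated DNA at the fork, was at 2957 and 2929 in knockout libraries, against 1654 and 1716 in control libraries, and at 4061 and 4289.7 in blocked libraries, against 1825 and 2036 in untreated libraries. Dnmt1, the maintenance methyltransferase, had log2 fold changes of 0.69 and 1.17, the chaperone gene Rbbp4 had 0.44 and 0.68, and Asf1b, another chaperone gene, had 0.52 and 1.31.

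Most genes of the lists on S phase entry were called higher, where 32.9% of all genes were in the knockout and 31.4% with the antibody. Of 13 S phase cyclin and checkpoint genes, 11 rose and 1 fell in the knockout and 11 rose and 0 fell with the antibody. Ccna2, the S phase cyclin, had 2046 and 2080.2 in knockout libraries, against 1223 and 1205 in control libraries (log2 fold change 0.76), and 3728 and 3908 in blocked libraries, against 1761 and 1705 in untreated libraries (log2 fold change 1.14). Chek1, the fork checkpoint kinase, was at 0.55 and 0.98, Rad9a of the checkpoint clamp at 0.71 and 0.52, and Ccne1, a G1/S cyclin, at 0.97 and 1.24 on the log2 scale in the knockout and with the antibody, and all 3 rose in both. The gene called lower in the knockout was Atr, the upstream checkpoint kinase (-0.24), which rose with the antibody (0.59). E2F partners and pocket proteins had 7 higher and 1 lower of 11 in the knockout, and 8 higher and 0 lower with the antibody. E2f8, a repressor of the family, was at 1.01 and 1.09, the dimer partner gene Tfdp1 at 0.68 and 0.86, and E2f4 rose in the knockout (0.40) and did not pass with the antibody (-0.045). Rbl1, a pocket protein gene, rose in both (0.49 and 0.76), and Rb1 was the gene called lower in the knockout (-0.36) and was called higher with the antibody (0.19). Ubiquitin ligase genes that act on licensing factors and cyclins had 6 higher and 1 lower of 8 in the knockout and 8 higher with the antibody, among them Skp2 (0.59 and 0.60), Cdc20 (0.81 and 0.73), Fzr1 (0.50 and 0.36) and Dtl (0.22 and 0.75). The gene called lower in the knockout was Cul4b (-0.29), which was called higher with the antibody (0.21).

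CDK inhibitors and p53 targets of G1 had 1 of 6 tested genes higher and 4 lower in the knockout, where 28.2% of all genes were called lower. With the antibody 2 were higher and 1 was lower, near the shares of all genes (31.4% and 28.9%). Cdkn1a, whose product p21 inhibits CDKs and binds PCNA, had 1247 and 1245 in knockout libraries, against 4164 and 4106 in control libraries (log2 fold change -1.73, SE 0.029, adjusted p = 2.46e-06). With the antibody it was at 1269.6 and 1482 in blocked libraries, against 4606 and 4694 in untreated libraries (log2 fold change -1.76, SE 0.064, adjusted p = 1.89e-14), so both groups stood well apart in each experiment. Ccng1, a p53 target, fell in the knockout (-0.83) and rose with the antibody (0.33). Cdkn2d, a CDK4/6 inhibitor gene, fell in the knockout (-0.45) and did not pass with the antibody (-0.15), and Cdkn2c, of the same family, rose in both (0.53 and 1.20). Cdkn2a and Cdkn2b were under the filter in both tables.

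**Figure D4:**
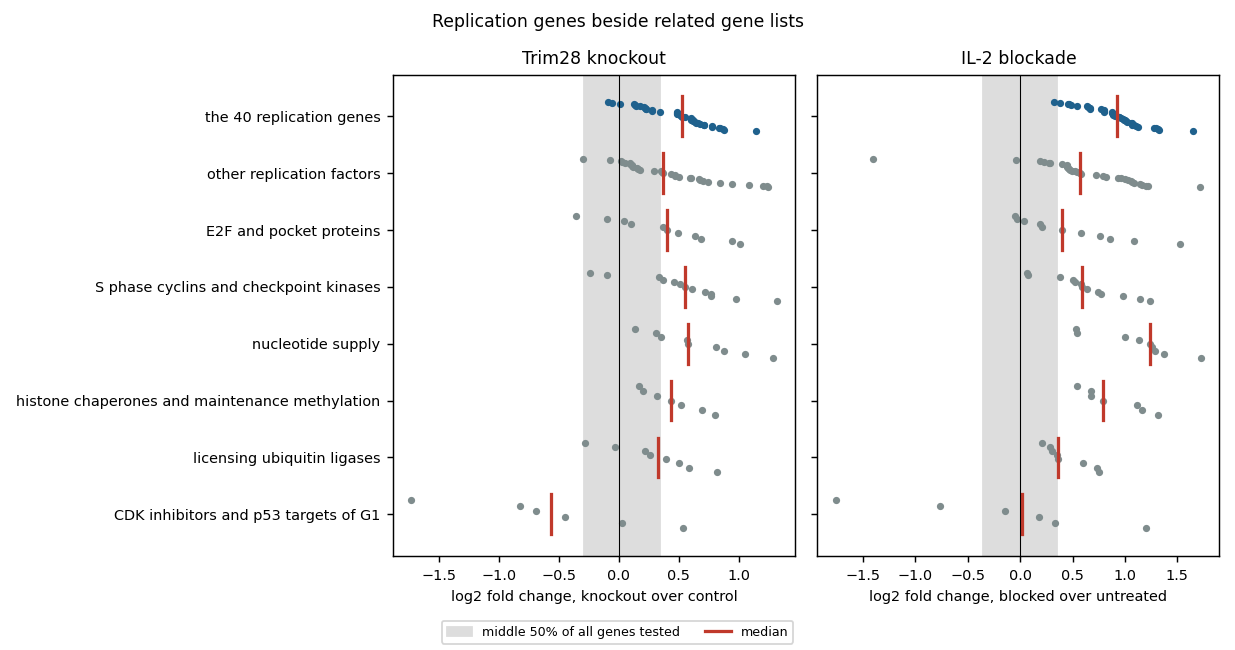
Log2 fold change of the 40 replication genes and of the genes of 7 related lists, knockout over control (left) and blocked over untreated (right). Points are genes, with vertical offsets only to separate them, red bars are list medians and the grey band is the middle 50% of all genes tested. The medians of every list but the CDK inhibitors lie between 0.33 and 1.24 in both panels, and those of the inhibitors are at -0.57 and 0.017.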

How the data were processed

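PolyA RNA of 8 libraries in 4 groups was measured by RNA-seq. Per the submitters' processing notes the build was mm10 and the tools were StringTie 2.1.4, DESeq2, HISAT2 2.2.1 and Trim Galore 0.4.4. Their order, the annotation, the counting step and any filter are not given in the sources used here. The values the authors deposited are a signal, gene read counts divided by a size factor per library within each table. Whole reads were recovered by dividing by the smallest value above 0 in a library, and 100% of values came out whole within 0.001. Values were taken as log2 (value + 1), a scale that understates fold changes of low genes, and compared with limma 3.58.1 in R 4.3.3 (moderated test, mean-variance trend). The filter kept genes that reached 10 in 2 or more libraries of a table, Benjamini-Hochberg adjustment ran over all genes kept, and the threshold for a call was 0.05. The 2 tables had a fit each, and a joint fit of 8 libraries gave the difference of effects. Alternatives were pseudocounts of 5 and 0.5, no filter or a filter of 50, TMM and upper-quartile scaling, edgeR 4.0.16 and DESeq2 1.42.0 on recovered reads, a replicate block, all 8 libraries in one fit and leaving out each library.

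Members and lists were chosen with earlier results of these data known. Full statistics go to the 10 called members with the largest change in each comparison and those not called, and of each list up to 3 genes with the smallest adjusted p are named. The columns of blocked libraries carry no replicate number and are called A and B. Between the 2 libraries of a group the counts varied 1.32 to 3.87 times as much as counting error alone (mean chi-square per gene), so no library was a copy of another. Positions, exon overlap and exon length came from GENCODE M21 (GRCm38), and promoters from RefSeq on GRCm38.p6. No strand information was at hand. One further marker list is not reported here.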

Additional observations from a re-analysis of the deposited data

How the results depend on the processing

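Of the 36 members called in the knockout 28 kept the call under all 15 alternatives, as did 39 of 40 under 14 with the antibody and 28 of 33 under 16 for the difference. Members called higher in the knockout numbered 28 with DESeq2, 31 without a filter, 31 with upper-quartile scaling and 29 to 32 with 1 library left out. DESeq2 called 2846 genes higher and 2660 lower in the knockout, beside 5065 and 4344 by limma, and 1722 higher for the difference, beside 3073. Leaving out 1 library gave 3212 to 4103 higher and 2787 to 3193 lower in the knockout, and 0 to 1 members higher for the difference. The log2 fold change of Pcna in the knockout turned to -0.021 with TMM scaling, -0.057 with upper-quartile scaling, -0.021 with edgeR and TMM, -0.022 with edgeR and RLE and -0.022 with DESeq2, and ran over -0.033 to 0.059 with 1 library left out. That of Gins2 ran over -0.24 to 0.051. The cause of these shifts was not tested. Same-numbered knockout and control libraries did not deviate together (correlation 0.013 over 15415 genes), and a fit with the replicate block called 35 members higher. No paired analysis was possible because the blocked libraries carry no numbers, for the antibody comparison and the difference. With 2 libraries per group, small changes are least certain.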

Other observations

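Chtf8, a gene outside the 40 that was singled out after its values were seen, is a subunit gene of an alternative clamp loader. It had 3014 and 2992 in knockout libraries, against 2335 and 2322 in control libraries, and 107 and 114 in blocked libraries, against 107 and 82.4 in untreated libraries. The tables were normalised separately and the counting step is not given in the sources used here, so no comparison of these levels was made.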
